A study of Saccharomyces cerevisiae with 2 samples.

Results

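Budding yeast carries mating-type information at 3 places on chromosome III: the expressed MAT locus and the silent cassettes HML and HMR, which store copies for mating-type switching. The measurements described here are the cytosines listed inside windows around these loci in the sacCer3 genome, namely chrIII:10001-16501 (HML), chrIII:197501-202501 (MAT) and chrIII:290501-296501 (HMR). The windows were set by position alone. They held 822 of 904140 cytosines listed in the library treated with CCMT and 608 of 840645 in the library treated with GCMT. HML gave 305 and 214 cytosines, MAT 221 and 160, and HMR 296 and 234, in that order of libraries.

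Both libraries came from S288C, a haploid laboratory strain, grown in YPD medium with shaking. The cells were opened with Zymolyase, fixed with formaldehyde and permeabilized with NP40 before a DNA methyltransferase was added. CCMT is an enzyme derived from M.CviQIX that methylates the first cytosine of CC, and GCMT is M.CviPI, which methylates the cytosine of GC. Bisulfite sequencing then gave a methylation level at each cytosine, the share of reads in which it was methylated, and a high level means DNA that the enzyme could reach. There was 1 library per enzyme, so no value has a replicate error and no test between groups was possible. The SDs below run over cytosines. The 95% exact binomial intervals of pooled reads, and the Newcombe intervals of differences, cover counting error only, and reads of neighbouring cytosines can come from the same molecule. Over all nuclear cytosines the mean level was 9.71% with CCMT at a mean coverage of 31.6 reads, and 10.1% with GCMT at 13.1 reads.

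Each silent cassette lies between an E and an I silencer, short elements bound by the origin recognition complex (ORC) together with Rap1, Abf1 or both. These proteins recruit the Sir proteins, including the histone deacetylase Sir2, and the resulting heterochromatin keeps the cassette genes off. MAT has no silencers and its genes are transcribed. The cassettes are built from shared blocks around a Y block that differs by mating type. HML and MAT have the blocks W, X, Z1 and Z2, and HMR has X and Z1. Genes that start in Yα encode the regulators α1 and α2, and a gene in Ya encodes a1. HO endonuclease starts switching by cutting at the border of Y and Z1 of MAT and spares the same sequence in the silent copies.

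The 4 silencers are printed because they are the elements that set the silent loci apart from MAT. Capitals mark matches, on either strand, to the ORC consensus, the Abf1 consensus and, for Rap1, ACCCANNCA. Of all nuclear 300-bp windows, 1.88% held the ORC consensus, 3.98% that of Abf1 and 2.69% that of Rap1. All are top-strand sequences of the S288C reference (R64, identical to sacCer3), at chrIII:292638-292797 (HMR-E), chrIII:294790-294901 (HMR-I), chrIII:11220-11339 (HML-E) and chrIII:14590-14729 (HML-I).
HMR-E: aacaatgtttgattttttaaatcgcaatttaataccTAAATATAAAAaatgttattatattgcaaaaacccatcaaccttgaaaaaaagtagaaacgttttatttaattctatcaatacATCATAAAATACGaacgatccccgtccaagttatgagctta
HMR-I: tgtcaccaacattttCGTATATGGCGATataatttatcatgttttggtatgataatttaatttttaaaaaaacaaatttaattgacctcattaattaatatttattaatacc
HML-E: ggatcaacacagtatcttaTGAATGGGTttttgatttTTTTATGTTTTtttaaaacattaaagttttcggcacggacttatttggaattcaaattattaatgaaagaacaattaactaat
HML-I: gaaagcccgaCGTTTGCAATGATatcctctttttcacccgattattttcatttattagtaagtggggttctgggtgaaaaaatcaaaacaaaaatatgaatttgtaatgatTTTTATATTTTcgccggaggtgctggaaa
The ORC match was found in HMR-E, HML-E and HML-I, the Abf1 match in HMR-E, HMR-I and HML-I, and the Rap1 match in HML-E. A match is a description of letters and not a measured site, and the lack of a match does not mean that a site is absent.

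The borders of Y and Z1 are shown next, with Z1 in capitals, because they hold the HO recognition sequence and because they show how the cassettes share their letters. They lie at chrIII:13672-13731, chrIII:200832-200891 and chrIII:294360-294419.
HML Y/Z1: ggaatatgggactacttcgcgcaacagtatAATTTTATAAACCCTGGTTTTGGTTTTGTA
MAT Y/Z1: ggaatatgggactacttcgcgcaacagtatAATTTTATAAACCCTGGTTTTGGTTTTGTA
HMR Y/Z1: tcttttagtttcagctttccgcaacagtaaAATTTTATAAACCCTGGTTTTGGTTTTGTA
HML and MAT were identical over the border, both carrying Yα in this reference, and HMR differed from them only to the left of Z1.

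Listing was less complete in shared than in unique DNA. Target cytosines of unique DNA, outside exact matches of at least 75 bp, were listed in full at HML and MAT with both enzymes. At HMR 252 of 258 unique CC targets and all 216 unique GC targets were listed. Of the shared targets, CCMT listed 50.7% at HML, 39.3% at MAT and 59.5% at HMR, and GCMT 10%, 8.89% and 31.03%. None of the 40 CC and 56 GC targets of Yα was listed at HML or at MAT, where the block is the same. With CCMT the listed cytosines left gaps of 1466 bp at HML and 1430 bp at MAT that ran from the X block into Z1. The genes HMLALPHA1 and MATALPHA1, which encode α1, had no listed cytosine, and the shared promoter of α1 and α2 could not be compared between the silent and the expressed copy. Close to the HO border, cytosines were listed only at HMR. There the nearest CC cytosines of Z1 had levels of 0% (0 of 27 reads), 3.70% (1 of 27), 14.3% (3 of 21) and 23.8% (5 of 21).

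The Ya block of HMR, of 653 bp, is unique in this genome, and its coverage gave a check of mating type, which the labels do not state. Had MAT carried Ya, reads of 2 copies would have been placed on HMR. Coverage of Ya was 0.730 times the chromosome III median with CCMT and 1.07 times with GCMT. Neither value was near 2 times that median.

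**Figure D1:**
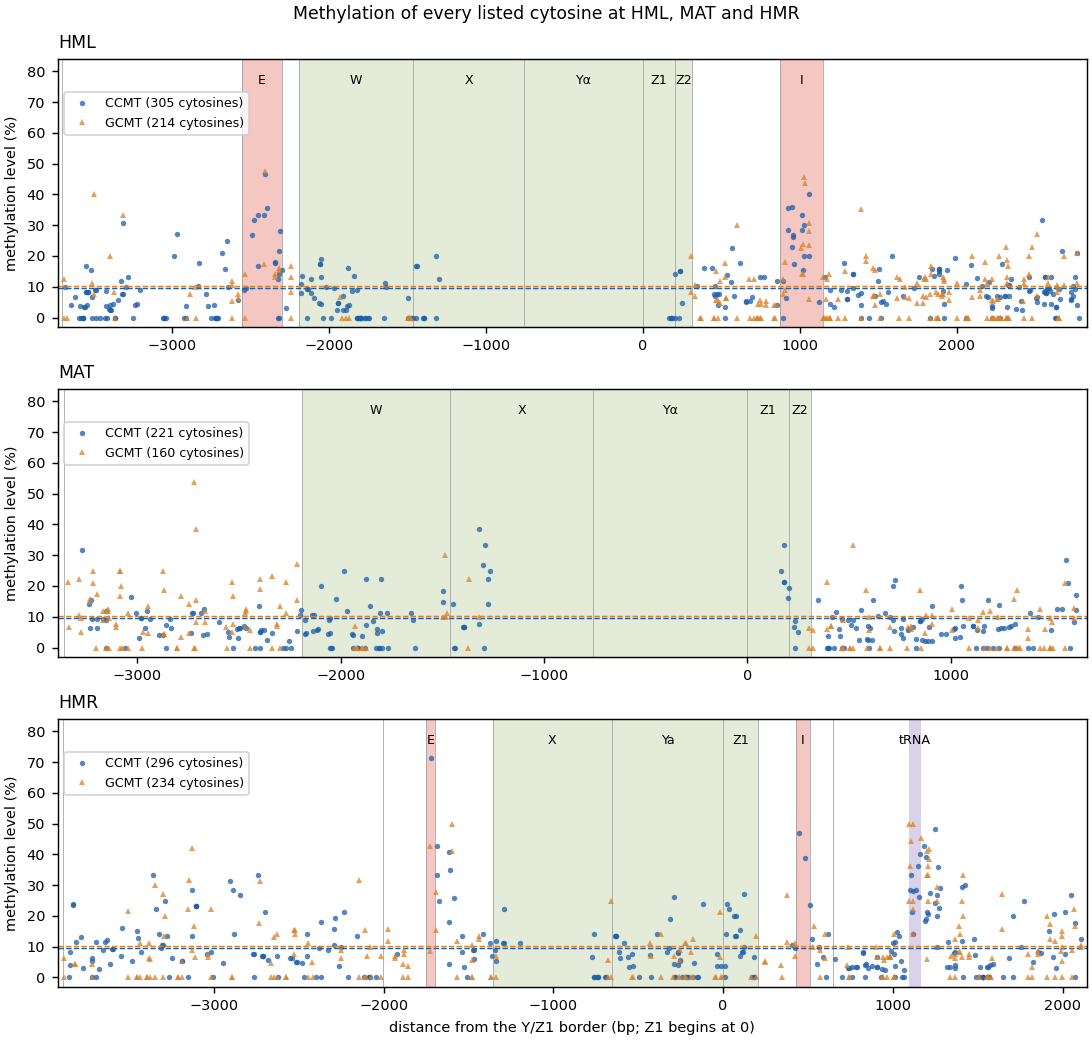
Methylation level of every listed cytosine (percent of reads, vertical axis) against its distance from the border of Y and Z1 (bp, horizontal axis) at HML, MAT and HMR, with CCMT as circles and GCMT as triangles. Red bands are silencers, green bands the cassette blocks, the violet band the tRNA-Thr gene and dashed lines the nuclear means of 9.71% and 10.1%. The inner cassettes of HML and MAT are empty, and values of HML above 40% lie in its silencers.

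The silencers were the most methylated segments of both silent loci, and HML gave the clearest case. The E silencer of HML (ARS301, chrIII:11146-11401) had a mean level of 20.6% ± 12.6 (SD, 18 cytosines) with CCMT and 17.2% ± 13.4 (8 cytosines) with GCMT. The I silencer of HML (ARS302, chrIII:14575-14849) had 22.4% ± 11.4 (18 cytosines) and 21.5% ± 12.4 (14 cytosines). Both stood above their sides with both enzymes. In the 300 bp to the left and to the right of the windows centred on them, means lay between 7.56% and 10.3% with CCMT and between 4.35% and 9.58% with GCMT. Of nuclear 300-bp windows, 4.99% were as high as the one on HML-E and 3.76% as high as the one on HML-I with CCMT, and 9.82% and 9.63% with GCMT.

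Over both HML silencers 21.8% of CCMT reads were methylated (128 of 586), against 7.31% (143 of 1957) in the DNA between them. The difference was 14.5 percentage points (95% interval 11.1 to 18.2). With GCMT it was 20.7% against 5.63%, a difference of 15.1 points (11.1 to 19.3). With CCMT most cytosines listed in between lay in W, X, Z1 and Z2, whose DNA is shared with MAT, and Yα had none listed. The part of read placement in that comparison was not tested. The spacer between the cassette and HML-I, in unique DNA, had mean levels of 9.48% (24 cytosines) with CCMT and 5.30% (36 cytosines) with GCMT. The difference against unique DNA alone was not computed. Single cytosines of the silencers overlapped those in between: 88.9% of silencer cytosines with CCMT and 95.5% with GCMT lay above the median of the DNA between the silencers. CCMT coverage at the HML silencers was 0.502 and 0.516 times the chromosome III median and GCMT coverage 1.51 and 1.73 times, and the part of coverage in these levels was not tested.

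HMR-E, the silencer on the left of HMR, is annotated as ARS317 at chrIII:292638-292694, only 57 bp, and held few targets. Its single CC cytosine was methylated in 5 of 7 reads, a level of 71.4% (29.04% to 96.3%). Its 2 GC cytosines had 42.9% (6 of 14 reads) and 8.70% (2 of 23). The high levels went on to the right of the annotated element. In the printed stretch the 3 CC cytosines after the ORC match had 42.9%, 33.3% and 25%, and the 4 to the right of the Abf1 match had 4.55%, 18.2%, 40.9% and 34.8%. The GC cytosines near the right end of the stretch had 50% (11 of 22 reads) and 41.2% (7 of 17).

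Averaged over the 300 bp centred on HMR-E, the level was 33.0% ± 18.7 (9 cytosines) with CCMT and 23.7% ± 19.4 (8 cytosines) with GCMT. Only 0.413% of nuclear 300-bp windows were as high with CCMT, and 4.44% with GCMT. The 300 bp to the left had 3.0% and 7.39%, and the 300 bp to the right, towards the cassette, 9.48% and 5.07%. HMR-E was the highest of the 4 silencers with both enzymes on this scale.

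HMR-I (ARS318, chrIII:294820-294901) had 36.5% ± 11.9 over its 3 CC cytosines, 47.1% (8 of 17 reads), 38.9% (7 of 18) and 23.5% (4 of 17), and held no GC target. Just left of the annotated element, cytosines inside the Abf1 match were lower than those of the element and near the nuclear means. They had 9.52% (2 of 21 reads) with CCMT and, on the bottom and top strands, 6.90% (2 of 29) and 11.1% (3 of 27) with GCMT. The 300 bp centred on HMR-I had 16.1% (CCMT) and 9.71% (GCMT), and 9.52% and 33.9% of nuclear windows were as high. HMR-I thus stood above the nuclear mean over this window with CCMT and below it with GCMT, where the window holds no cytosine of the element itself.

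**Figure D2:**
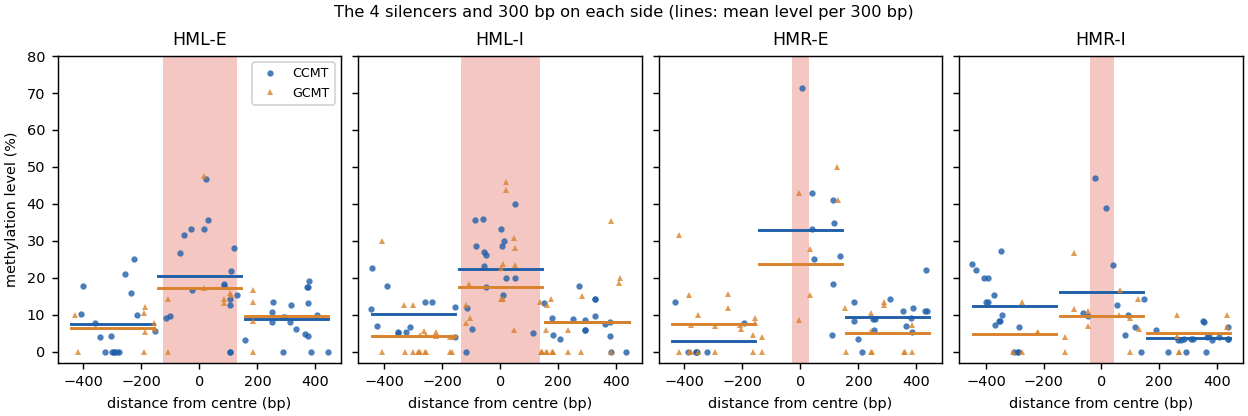
Methylation level (percent, vertical axis) of each listed cytosine against distance from the centre of each silencer (bp, horizontal axis), with CCMT as circles and GCMT as triangles. Red bands are the annotated elements and horizontal lines the mean level of each 300 bp. At HML-E, HML-I and HMR-E the central lines lie above both side lines for both enzymes.

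All 4 silencers are also annotated as origins of replication, and annotated origins as a class were high in these libraries. Origin activity was not measured. Of 352 annotated nuclear origins, 298 had at least 3 CC cytosines, with a median level of 15.5%. At or above HML-E were 74 of them, at or above HML-I 61, and at or above HMR-I 10. With GCMT the median over 290 origins was 16.99%. HML-E at 17.2% lay at that median, with 142 of 290 origins as high, and HML-I had 77 as high. At HMR-E, which rests on 2 GC cytosines, 43 were as high.

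Inside the silent loci the levels were low to middling. Ya of HMR, the only Y block with listed cytosines, had 6.63% ± 6.57 (38 cytosines) with CCMT and 4.83% ± 6.05 (26 cytosines) with GCMT. The X block of HMR had 6.41% and 6.28%, over 16 and 6 cytosines. The spacer between the HML cassette and HML-I had 9.48% ± 5.37 (24 cytosines) and 5.30% ± 6.61 (36 cytosines). The spacer between HMR-E and the X block was higher, at 17.04% ± 13.5 (18 cytosines) and 13.4% ± 15.9 (14 cytosines), and it begins with the right part of the HMR-E peak.

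HMRA1, which encodes the a1 regulator and is the only mating-type gene listed over most of its length, was among the least methylated genes. Its coding DNA (chrIII:293835-294321, introns left out) had 5.53% ± 6.63 (24 cytosines) with CCMT and 4.40% ± 5.39 (18 cytosines) with GCMT. Of genes with at least 10 listed cytosines, 2.27% of 5866 were as low with CCMT and 1.18% of 5782 with GCMT. The DNA just upstream of the HMRA1 start did not share this rank. It is printed with its 7 listed CC cytosines in capitals, as C on the top strand and G where the cytosine is on the bottom strand (chrIII:293737-293834).
HMRA1 upstream: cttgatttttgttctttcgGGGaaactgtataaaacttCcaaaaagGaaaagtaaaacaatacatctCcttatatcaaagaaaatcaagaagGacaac
The 7 levels ran from 6.45% to 13.3%, with a mean of 10.4% ± 3.17, while the median of all genes over the same distance upstream was 11.0% and 45.9% of 5187 genes were as low. This stretch holds no GC target, so the value rests on CCMT alone.

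Ya was then set against the outer flanks of MAT, which carry the expressed genes BUD5, for a regulator of bud-site choice, and TAF2, for a subunit of the general transcription factor TFIID. With CCMT the pooled levels were 6.87% in Ya and 6.91% in the MAT flanks, a difference of -0.041 points (95% interval -1.71 to 1.94). With GCMT they were 4.80% and 8.62%, a difference of -3.81 points (-6.0 to -0.766). Without GCC cytosines the GCMT difference was -3.32 points (-5.72 to 0.263), which includes 0. The MAT flanks were themselves unequal with GCMT, at 11.3% on the left and 6.02% (4.74% to 7.52%) on the right, and the right flank's interval overlapped that of Ya (2.77% to 7.69%). The difference between the enzymes was not tested.

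The loci were next compared with the nuclear chromosomes in windows of fixed size. Windows of 500 bp with at least 10 listed cytosines in each library were called low at or under 0.5 times the library's nuclear mean and open at or over 2 times that mean. Of the 35 windows in the loci 23 could be used: 7 at HML, 6 at MAT and 10 at HMR. With CCMT 0 of 23 were low, against 1.85% of nuclear windows. With GCMT 2 of 23 were low, against 8.38%, and both lay at HMR: chrIII:290501-291000 at 3.75%, in the outer flank, and chrIII:294001-294500 at 4.87%, over the end of HMRA1. Low with both enzymes were 0 windows (0.375% of nuclear windows), and open with both 0 (3.37%). The window on HMR-E, chrIII:292501-293000, was open with CCMT alone, at 21.2%. The low shares lie near the nuclear background. The 12 windows left out, which include the inner cassettes, held too few listed cytosines to be called.

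In windows of 50 bp, 5.47% of nuclear windows were open with both enzymes. At HML 3 of 50 were open, 1 in the E silencer (40% and 32.4%) and 2 in the I silencer (25.5% and 27.5%, 30% and 22.1%). At MAT 0 of 44 were open. Yα, with the promoter of α1 and α2, had no listed cytosine and so gave none of these windows, at MAT or at HML. At HMR 4 of 63 were, 1 beside HMR-E (24.6% and 45.6%) and 3 at a tRNA gene. The highest 50-bp window of MAT by both libraries, chrIII:199351-199400 in the W block, had 16.7% and 15.3%.

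**Figure D3:**
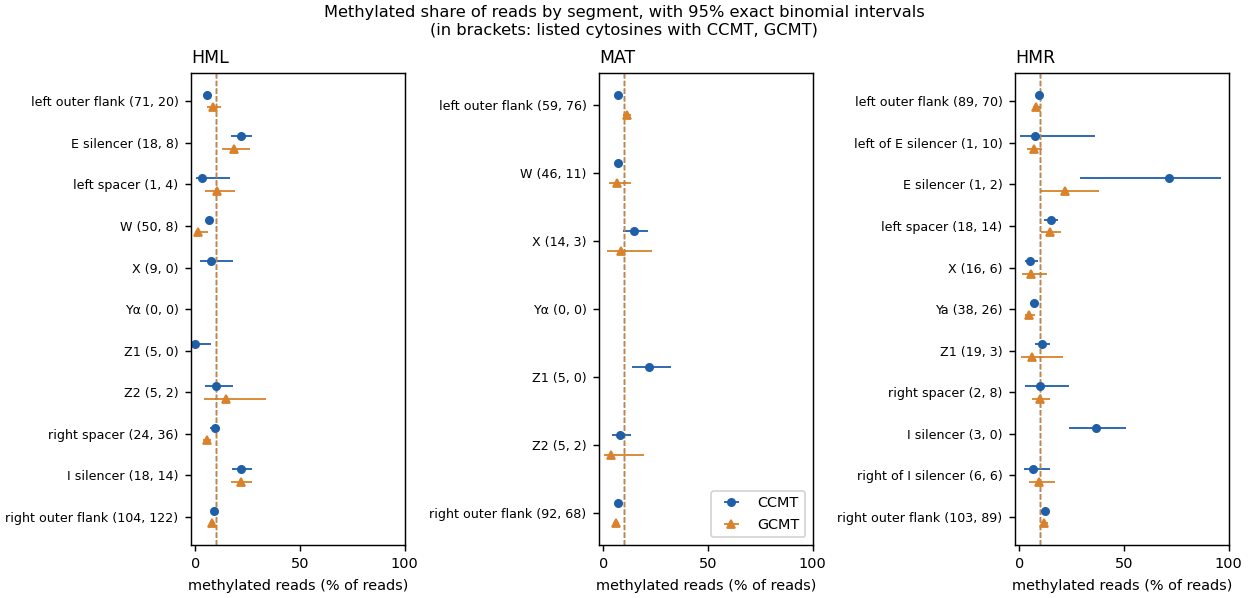
Methylated share of reads (percent, horizontal axis) with its 95% exact binomial interval for each segment of HML, MAT and HMR, with CCMT as circles and GCMT as triangles. Dashed lines are the nuclear means, which nearly coincide, and Yα has no listed cytosine at HML or MAT. The silencers lie to the right of the means, and Z1 lies at 0% at HML, 22.0% at MAT and 10.8% at HMR, over different numbers of cytosines.

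Some cytosines of identical DNA were listed at more than 1 locus, which sets the silent against the expressed copy of the same letters. With CCMT 65 cytosines were listed at both MAT and HML, of 178 identical targets. MAT was higher at 36 of them, HML at 24, and 5 were equal. The pooled levels were 8.71% and 6.59%, a difference of 2.13 points (0.066 to 4.22). With at least 10 reads at each cytosine, the difference over 47 pairs was 0.455 points (-1.69 to 2.64), and without GCC cytosines 2.34 points (-0.131 to 4.86). Both intervals include 0.

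Of the 4 blocks, Z1 gave the largest difference. The 45 bp of MAT that hold the paired cytosines, at chrIII:201020-201064, are printed with those cytosines in capitals, and the same letters stand at HML and HMR.
MAT Z1: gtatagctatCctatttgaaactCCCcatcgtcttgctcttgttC
In left-to-right order MAT had 25% (2 of 8 reads), 21.4% (3 of 14), 21.4% (3 of 14), 33.3% (5 of 15) and 16.1% (5 of 31). HML had 0% at all 5, over 6, 9, 9, 9 and 14 reads. HMR was listed at the first 4 cytosines and had 0% at 3 of them, over 14, 15 and 15 reads, and 6.67% (1 of 15) at the other.

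Pooled over the 5 cytosines, MAT had 22.0% (18 of 82 reads) and HML 0% (0 of 47), a difference of 22.0 points (11.2 to 32.1). A count of 0 in 47 reads allows a level of up to 6.38% (3 reads), and its exact 95% interval reaches 7.55%. Over the 4 cytosines shared with HMR, MAT had 25.5% (13 of 51) and HMR 1.69% (1 of 59), a difference of 23.8 points (11.5 to 37.3). Over all of Z1, however, HMR was not low: its 19 listed CC cytosines had a mean of 11.3% ± 8.64 (33 of 305 reads, 10.8%), with 27.3% (3 of 11 reads) at the highest, and most of them had no listed partner at MAT or HML. HML and HMR differed by -1.69 points (-9.00 to 8.83) over the 4 shared cytosines. The expressed copy was thus higher than both silent copies at every cytosine compared, but the cytosines lie within 35 bp of each other on 1 strand and share molecules, so the intervals are too narrow. With at least 10 reads 1 pair of MAT and HML was left, with 16.1 points (-7.22 to 32.6). GCMT listed no pair in Z1. How the mapper placed reads from identical DNA is not given in the sources used here, and its part in these values was not tested.

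Z1 in MAT is the end of MATALPHA1 and the start of YCR041W, an open reading frame of dubious coding status. YCR041W (chrIII:200911-201243) had 15.7% ± 9.84 over 11 CC cytosines, and 97.5% of genes were as low or lower. Among the 11 are the 5 Z1 cytosines given above and the 5 of Z2 given next, so this rank is no separate result. The 4 GC cytosines of YCR041W, at other positions, had 2.95%. In Z2, next to Z1, the pooled CCMT levels were 7.74% at MAT and 9.78% at HML over 5 pairs, a difference of -2.04 points (-10.5 to 4.95). The higher pooled level of MAT in Z1 thus did not extend over Z2 as a whole, where MAT was higher at 3 pairs and HML at 2. At the first cytosine of Z2, next to the last one of Z1, MAT had 19.4% (6 of 31 reads) and HML 14.3% (2 of 14).

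At the other end of the cassettes, in the X block, MAT had 12.8% and HML 7.41% over 9 pairs, with 6 higher at MAT, but the interval of the difference ran from -5.89 to 14.2 points. MAT and HMR over 7 pairs of X had 9.64% and 10.6% (difference -1.0 points, -10.1 to 8.52). The 6 CC cytosines listed in MATALPHA2, which encodes α2, had a mean of 20.3% ± 11.7, pooled over only 58 reads. They sit at the end of that gene, beside the start of BUD5, which is read in the same direction. HMLALPHA2 and HMRA2 had 1 listed CC cytosine each, at 12.5% (1 of 8 reads) and 11.1% (1 of 9).

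The W block gave the most pairs. With CCMT the 46 pairs had 7.18% at MAT and 6.56% at HML, a difference of 0.624 points (-1.58 to 2.91), and MAT was higher at 22 and HML at 19. With GCMT 8 pairs had 8.05% (7 of 87 reads) and 1.12% (1 of 89), a difference of 6.92 points (0.484 to 14.6), with MAT higher at 5 and 3 equal. In Z2 the 2 GC pairs went the other way, at 3.85% and 14.8%, and over all 10 GC pairs the difference was 2.77 points (-3.63 to 9.50). The GCMT level of the W block of MAT fell from 6.20% to 1.02% when 50 bp were trimmed from its ends, so it came from cytosines near an end of the block. The GC pairs at chrIII:199365-199384 had 10%, 30%, 10% and 11.1% at MAT and 0% at HML, over 9 to 14 reads each. The CC pairs there had 14.8% and 18.5% at MAT (27 reads each) and 0% and 6.25% at HML (16 reads each). A base that differs between the copies lies beside them, at chrIII:199358. This end was picked after seeing the values. The W block holds parts of BUD5 at MAT and of YCL068C, an uncharacterized reading frame, at HML. YCL068C had 5.91% ± 6.02 over 53 CC cytosines, and 4.28% of genes were as low.

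**Figure D4:**
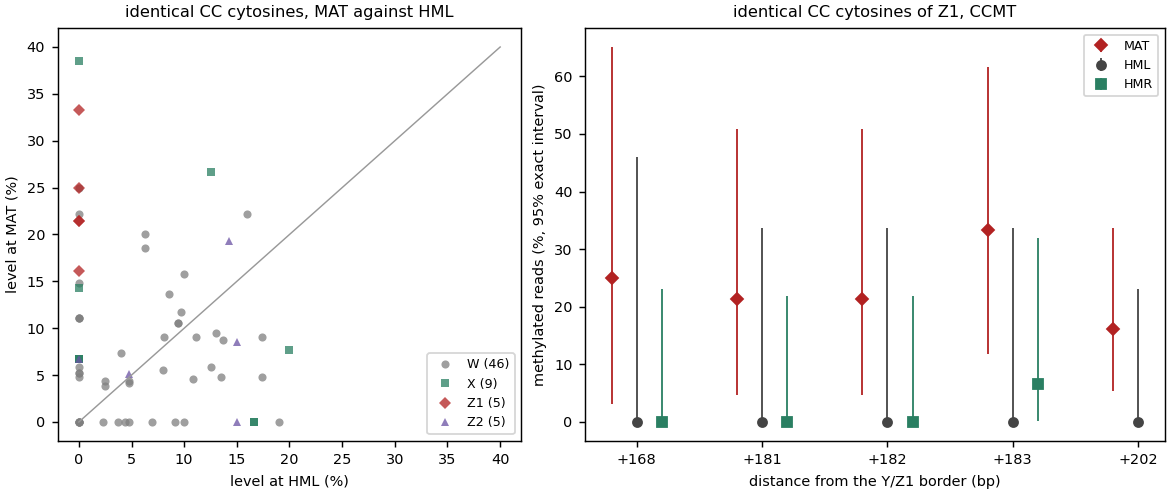
Left, CCMT level at MAT (percent, vertical axis) against level at HML (percent, horizontal axis) for 65 cytosines in identical DNA, marked by block, with the line of equal levels. Right, methylated share of reads with 95% exact binomial intervals at the 5 paired cytosines of Z1 by distance from the Y/Z1 border (bp), for MAT, HML and HMR. All 5 values of MAT lie between 16.1% and 33.3%, while HML is at 0% throughout.

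The outer flanks differed little between the loci. In unique DNA CCMT gave pooled levels of 8.63% at HML, 6.91% at MAT and 9.97% at HMR. The excess over MAT was 1.72 points (0.504 to 2.97) for HML and 3.06 points (1.90 to 4.24) for HMR. The HML value rests on 104 CC cytosines of the right flank and only 5 of the left flank (122 and 6 with GCMT). The left flank of HML, mostly shared DNA, had mean levels of 6.08% (71 cytosines) with CCMT and 9.62% (20 cytosines) with GCMT. With shared DNA defined by matches of at least 150 bp the HML excess was 1.05 points (-0.097 to 2.23), which includes 0. With GCMT the same differences were -0.447 points (-2.12 to 1.26) and 0.575 points (-1.05 to 2.21). HMR had the highest pooled level with both enzymes (9.20% with GCMT), but with GCMT neither interval left out 0. Without the tRNA gene of HMR and 100 bp on each side, an alternative chosen after seeing the data, the difference of HMR from MAT was 1.86 points (0.681 to 3.07) with CCMT and turned to -0.594 points (-2.20 to 1.03) with GCMT. The gene itself is shared DNA and was already out of the unique values, so only its sides were removed.

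Genes of the flanks lay near or below the nuclear mean. CHA1, which encodes the catabolic serine and threonine dehydratase, had 8.18% and 8.51% in its part inside the HML window. VBA3, a vacuolar amino acid transporter gene with a near-identical paralog, had 6.08% and 10.04%, and 1027 of the 1145 bp of that flank were shared DNA. BUD5 had 7.12% ± 6.23 (112 cytosines) with CCMT and 10.7% ± 9.99 (84 cytosines) with GCMT, and TAF2 6.95% and 5.91%. BUD5 runs from the left flank of MAT into the shared DNA of W and X, so its values and ranks are not those of the flank alone. As low as BUD5 were 24.8% of genes with CCMT and 90.4% with GCMT, and this difference between the enzymes was not tested. Next to HML-I the annotated origins ARS303 and ARS320 had 8.21% and 9.01% with CCMT and 8.12% and 7.45% with GCMT, well under the silencer. ARS314, at the left end of the MAT window, had 1 CC cytosine, at 31.8%, and 12.6% ± 7.45 over 6 GC cytosines.

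To the right of HMR-I lies the threonine tRNA gene YNCC0014W (chrIII:295484-295556), which is known as a barrier to the spread of silencing. The DNA between HMR-I and the gene had 5.13% ± 4.30 (39 cytosines) with CCMT and 5.69% ± 5.05 (26 cytosines) with GCMT, below the nuclear mean of each library. It holds a Ty1 LTR (chrIII:295003-295330) with 4.04% and 3.85%. The gene itself had 28.6% ± 7.70 (9 cytosines) and 34.8% ± 13.4 (9 cytosines). In the right outer flank of HMR 81 bp were shared DNA, which held all listed cytosines of the gene. The levels of the gene thus rest on repeated DNA, at a mean coverage of 30.6 reads with CCMT and 9.22 with GCMT. The part of read placement in them was not tested. The 100 bp after the gene stayed high, at 26.5% ± 11.3 and 30.96% ± 10.6, whereas the 100 bp before it had 6.39% ± 5.61 and 3.57% ± 7.14. Beyond that the level was 9.26% and 8.81%. So the step lay at the side of the gene that faces HMR. Whether other tRNA genes have such a step, and the part of silencing in it, was not tested.

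tRNA genes as a class had such levels: the median was 22.4% over 273 genes with CCMT and 33.5% over 261 with GCMT. Of these, 42 and 116 were as high as YNCC0014W. Of the other LTRs of the HMR window, the Ty1 LTR at chrIII:291373-291712 had 13.5% and 12.2%, the Ty5 LTR at chrIII:291922-292167 had 10.7% and 5.24%, and the Ty1 LTR at chrIII:295958-296190 had 8.70% and 9.50%, with CCMT and GCMT.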

How the data were processed

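The members and the lists were chosen with earlier results of these data known. According to the study's methods, the authors treated fixed nuclei with either enzyme, prepared bisulfite libraries by tPBAT, and used BMap with in-house pipelines to align them (genome build sacCer3, per the labels). The deposited files give, per listed cytosine, the read count and the methylated fraction, and every listed cytosine had at least 5 reads. Fraction times count was whole to within 0.00236. Segments were taken from the RefSeq annotation of R64 and from exact matches between the loci of at least 75 bp. Levels were averaged over cytosines, reads were pooled for shares, with exact (Clopper-Pearson) and Newcombe intervals at 95% in SciPy 1.17.1 (pandas 2.3.3, numpy 2.4.6). The nuclear 300-bp windows and annotated elements used as a background had at least 3 listed cytosines each. The scripts were tested on simulated reads. Every gene and element annotated in the windows was named. The read depth inside the loci was 5881 to 7095 reads over cytosines per locus with CCMT and 2520 to 3669 with GCMT.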

Additional observations from a re-analysis of the deposited data

How the results depend on the processing

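Across the alternatives 119 of 136 values for the main comparisons moved by less than the half-width of their 95% interval (counts of windows by less than 1.5 times), and none changed direction among differences whose interval left out 0. Segment levels moved by less than that in 202 of 204 cases over 43 levels, the exceptions being HML-E after trimming, at 32.0% with CCMT and 32.4% with GCMT. Some of the 136 values could not move, so the count of 119 overstates stability. Examples are Ya against the MAT flanks at other match lengths, and Ya coverage with unlisted cytosines counted as 0.

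With 50 bp trimmed from both ends of each segment over 200 bp, the excess of the silencers over the DNA between them rose for both loci together from 15.3 to 22.2 points (CCMT) and from 13.6 to 18.8 (GCMT), and for HML alone to 21.2 and 20.9. For HMR with CCMT it was 43.7 points after correction for sequence context and 15.3 over 300 bp centred on each silencer (chosen after seeing the data), against 31.4 over 4 cytosines. All of these stayed above 0. Over all 11 identical cytosines MAT exceeded HMR by 8.48 points with CCMT, by 23.4 with at least 10 reads (3 pairs) and by 22.8 with matches of at least 150 bp (5 pairs), as fewer pairs of X stayed in. The difference of the HMR from the MAT flanks was 1.86 points with CCMT and -0.594 with GCMT without the tRNA gene and its sides. Intervals came to include 0 for Ya against the MAT flanks with GCMT without GCC cytosines, for the HML against the MAT flanks with CCMT at matches of at least 150 bp, and, with CCMT, for MAT against HML at identical cytosines with at least 10 reads (all blocks and Z1) or without GCC cytosines (all blocks).

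Counts of low windows moved from 0 to 1 with CCMT without GCC cytosines, and with GCMT from 2 to 1 with context correction or 1000-bp windows and to 4 with 250-bp windows. Open windows with CCMT moved from 1 to 0 with pooled reads or 1000-bp windows and to 2 with 250-bp windows, and with GCMT from 0 to 1 with 250-bp windows.

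No paired analysis was possible because each enzyme had 1 library. Depth was low in identical DNA: cytosines of X and Z1 at HML had 6 and 9.40 reads on average. With no untreated library, methylation left by incomplete bisulfite conversion could not be subtracted.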
